A study of Mus musculus with 25 samples.

Results

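Sperm RNA of FVB/N mice was compared with sperm RNA of C57BL/6J mice between the conditions FVB.CTL.F1 and C57.D300.F2, which were both sequenced for this study. FVB.CTL.F1 held 5 libraries from first generation FVB/N males whose mothers had received corn oil alone. C57.D300.F2 held 5 libraries from second generation C57BL/6J males, sired by males that had been exposed in utero to the plasticizer di(2-ethylhexyl) phthalate (DEHP) and borne by unexposed females. The DEHP dose was 300 mg/kg/day and was given, like the oil, from embryonic day 9 to 19. All males were 14 weeks old, and all sperm had swum out of the incised cauda epididymis, the tail end of the duct in which sperm are stored. The series holds 25 libraries in 5 conditions, and these 2 conditions make up 10 of them. The other conditions were C57.CTL.F1 and C57.D300.F1, first generation C57BL/6J males after oil or DEHP in libraries re-analysed from earlier work, and FVB.D300.F1, first generation FVB/N males after DEHP. Strain, generation and exposure of the lineage differed together between FVB.CTL.F1 and C57.D300.F2 and cannot be told apart. No second generation after oil alone was analysed here.

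The deposited table gave 1 estimated count per gene and condition, which combines the 5 libraries, so no spread between libraries was available and no test between conditions was made. Of 24358 genes, 46 had a failed estimate in one of the 2 conditions and 7343 had fewer than 10 counts in both. The remaining 16969 genes were compared by the log2 ratio of FVB.CTL.F1 over C57.D300.F2 with 1 added to each count. A gene was called higher or lower when the ratio reached 2 log2 units, a 4-fold difference where counts are large. The error given with a count is the standard deviation (SD) of the counting model of the authors' program, with a median of 0.276 of the count for FVB.CTL.F1, against 0.275 for C57.D300.F2. The estimated counts summed to 7568129 for FVB.CTL.F1, against 6921688 for C57.D300.F2.

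Sperm are made in the testis, where the last round of transcription ends as the genome is repackaged from histones onto protamines. The RNA of a mature sperm is therefore a remnant of messages from spermatids together with small RNAs. MicroRNAs, which are cut from hairpins and pair with messenger RNAs through a short seed near their 5′ end, change further during the passage through the epididymis. C57BL/6J and FVB/N are inbred strains, so differences between them can be genetic, whereas males of a strain are nearly identical.

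The 2 conditions were centred on each other, and the lower tail held more called genes than the upper one. The median log2 ratio over the 16969 genes was -0.00, the quartiles were -0.45 and 0.34, and 84.2% of the genes lay within 1 log2 unit. The deposited counts were already scaled between libraries, which fixes part of this centre. The calls comprised 120 genes higher in FVB.CTL.F1, 0.707% of those compared, and 424 genes lower, 2.50%. Together they made 3.21% of the genes. The difference exceeded its model SD in 110 of the higher and 403 of the lower genes. Among the lower genes 63 had at most 3 counts in FVB.CTL.F1, and among the higher genes 21 had at most 3 counts in C57.D300.F2, so that the size of those ratios depends on the added 1. The calls cover a continuous range of ratios. Elf5, at 75.9 counts in C57.D300.F2 and 310 in FVB.CTL.F1, lay just inside the limit for higher genes, and Pls1, at 81.9 and 328, lay just outside it. Likewise Mug1, at 184 and 45.2 counts, was just inside the limit for lower genes, and Uox, at 92.8 and 22.5, was just outside.

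**Figure D1:**
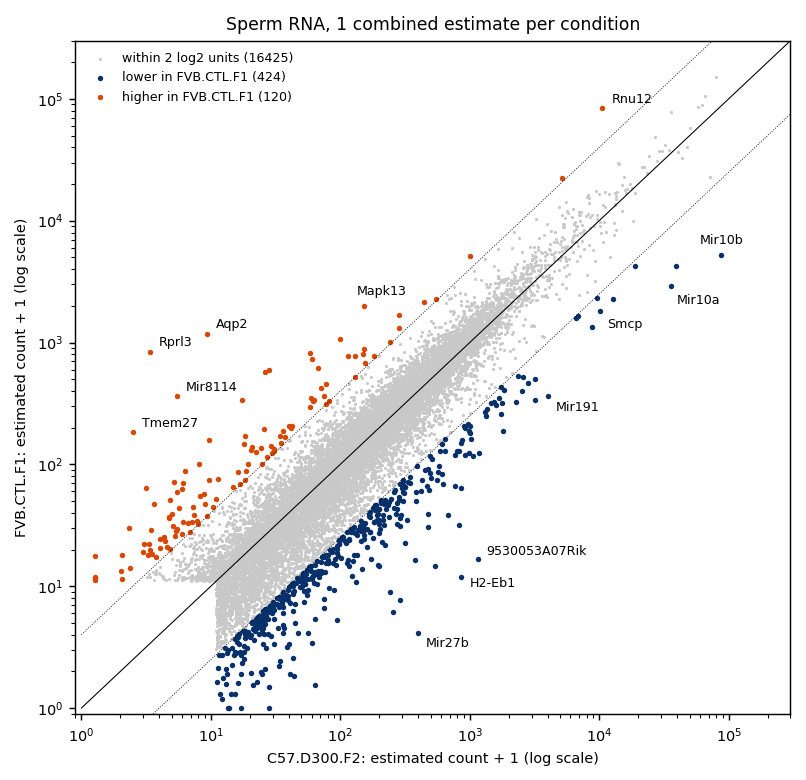
Estimated count plus 1 of each compared gene in C57.D300.F2 (horizontal) and FVB.CTL.F1 (vertical), both on log scales, with 1 point per gene. The solid line marks equality and the dotted lines a ratio of 4, beyond which 120 genes were higher (orange) and 424 lower (dark blue) in FVB.CTL.F1. Named are genes described in the text, among them Rprl3 and Aqp2 far above the line and Mir10b, Mir10a and Mir27b far below it.

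MicroRNA genes stood out among the lower genes. Of 134 compared genes with a microRNA name, 53 were lower and 3 were higher, with a median log2 ratio of -1.49 against -0.00 over all genes. The host transcripts Mir143hg, Mir17hg, Mir22hg and Mir99ahg were among the 134 and none of these 4 was called, so that all calls fell on the 130 hairpin genes, whose median was -1.57. The hairpin genes have at most 200 bases of exon, and the 122 other genes of that length had a median of 0.38, with 5 higher and 2 lower. Of 93 other genes of 200 to 500 bases 7 were higher and 6 lower, with a median of 0.06. Of 505 genes of 500 to 1000 bases 12 were higher and 39 lower, with a median of -0.21. Over all genes compared, 0.707% were higher and 2.50% lower. The parts of gene length and of mapping FVB/N reads to the C57BL/6J genome in the microRNA values were not tested. Both FVB/N conditions lay below all 3 C57BL/6J conditions for each of the 53 lower microRNA genes, an order that 393 of the 423 lower genes of any kind showed and that the call itself fixes in part. The sequences of the mature forms show which of the genes can pair with the same targets, since those with the same seed, printed in capitals at bases 2 to 8, read the same letters.
mmu-miR-10a-5p: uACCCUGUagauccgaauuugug
mmu-miR-10b-5p: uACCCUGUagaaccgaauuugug
mmu-miR-27a-3p: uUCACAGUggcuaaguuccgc
mmu-miR-27b-3p: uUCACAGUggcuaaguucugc
mmu-miR-34b-3p: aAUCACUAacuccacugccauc
mmu-miR-34c-3p: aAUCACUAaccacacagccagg
mmu-miR-141-3p: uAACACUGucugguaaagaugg
mmu-miR-200a-3p: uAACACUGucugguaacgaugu
mmu-miR-25-3p: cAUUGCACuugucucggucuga
mmu-miR-92a-3p: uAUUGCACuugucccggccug
mmu-let-7d-5p: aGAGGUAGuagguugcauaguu
mmu-let-7g-5p: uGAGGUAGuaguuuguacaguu
mmu-miR-182-5p: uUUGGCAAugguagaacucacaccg
mmu-miR-183-5p: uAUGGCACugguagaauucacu
mmu-miR-191-5p: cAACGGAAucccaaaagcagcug
mmu-miR-871-3p: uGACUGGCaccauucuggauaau
mmu-miR-8114: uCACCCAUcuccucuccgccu
The sequences are those of RefSeq on GRCm38.p6, which supplied 199 mature sequences for 117 of the 130 genes. The counts belong to hairpin genes and do not tell the arms, or a hairpin from its mature product, apart.

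The microRNA genes with the highest counts in C57.D300.F2 were those of the miR-10 family, which lie in the Hox gene clusters and share the seed ACCCUGU. Mir10b (mature miR-10b-5p at chr2:74726074-74726096, plus strand) had 88039 counts in C57.D300.F2 and 5222 in FVB.CTL.F1, for a log2 ratio of -4.08. The model SD of the first value was 99176, larger than the value itself, so that the difference did not exceed its model SD. In the other conditions Mir10b had 8195 in FVB.D300.F1, 40273 for C57.D300.F1 and 48454 counts for C57.CTL.F1. Mir10a (chr11:96317186-96317208, plus strand) had 35896 counts in C57.D300.F2 (model SD 30924) and 2909 in FVB.CTL.F1. It had 4199, 28919 and 31190 in those other conditions in the same order. Every C57BL/6J value of both genes was thus above every FVB/N value.

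Mir27b had the lowest ratio of all genes compared, -6.60. It had 400.5 counts in C57.D300.F2 (model SD 184) and 3.14 in FVB.CTL.F1, beside 7.56 in FVB.D300.F1, 313 for C57.D300.F1 and 410 for C57.CTL.F1. Its relative Mir27a, which carries the same seed UCACAGU from another chromosome, had 20.5 and 2.59 counts, a log2 ratio of -2.58. The mature miR-27b-3p lies at chr13:63300760-63300780 on the plus strand, within the gene 2010111I01Rik, whose own count was 493 in C57.D300.F2 and 580 in FVB.CTL.F1. The transcript around Mir27b was therefore not lower where Mir27b was.

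The male germ line microRNAs of the miR-34b/c locus on chromosome 9, which are known for their abundance in spermatids and sperm, were lower together. Mir34c had 534 counts in C57.D300.F2 (model SD 135) and 13.7 in FVB.CTL.F1, a 39.1-fold difference. Its values were 12.7 in FVB.D300.F1, 543 for C57.D300.F1 and 408 for C57.CTL.F1. Mir34b had 39.2 counts in C57.D300.F2 and 2.36 in FVB.CTL.F1. The mature miR-34b-3p (chr9:51103574-51103595, minus strand) and miR-34c-3p (chr9:51103044-51103065, minus strand) share the seed AUCACUA. A second germ line group was a run of called genes on the X chromosome between 66777256 and 66839125. It held Mir743b, Mir878, Mir881, Mir871, Mir470 and Mir465, all 6 called in the lower direction. The run was drawn from called genes, so that its members were called by choice. Mir871 was the most abundant of them, with 256 counts in C57.D300.F2 and 5.18 in FVB.CTL.F1, and with 4.52 in FVB.D300.F1, 548 for C57.D300.F1 and 397 for C57.CTL.F1. Mir470 had 109 and 21.7 counts in the contrast.

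Further lower microRNA genes lay on other chromosomes. Mir182 and Mir183, neighbours on chromosome 6, had 673 and 287 counts in C57.D300.F2 and 37.3 and 35.0 in FVB.CTL.F1. Mir191 (miR-191-5p at chr9:108568325-108568347, plus strand) had 4042 counts in C57.D300.F2 and 361 in FVB.CTL.F1. Mir141 had 624 and 67.4 counts, a log2 ratio of -3.19, while Mir200a, whose 3p form has the same seed AACACUG, had 132 and 97.9, a log2 ratio of -0.43. Its cluster partners Mir200b and Mir429 had ratios of -0.13 and -1.21, and Mir200c, next to Mir141, had -0.89. Of the let-7 genes, which share the seed GAGGUAG, all 5 that were compared had a negative ratio and 3 were called, with Mirlet7g at 37.9 and 2.17 counts and Mirlet7d at 50.9 and 9.60.

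Over the whole class, 18 seeds were shared by at least 2 compared genes, and for 16 of them every gene had a negative ratio. Some gene pairs share a seed in both arms and enter these seeds 2 times. Of the 134 compared genes with a microRNA name 101 had a negative ratio. Among the 90 hairpin genes numbered up to 1000, a division described below, 83 did. The counts of seeds and clusters thus restate in part the shift of the class. Of 15 clusters of compared microRNA genes separated by at most 10 kb, 14 had only negative ratios. The remaining cluster was Mir25 and Mir93 in Mcm7. Mir25, whose 3p form carries the seed AUUGCAC of miR-92a-3p, had 70.2 counts in C57.D300.F2 and 14.8 in FVB.CTL.F1, whereas Mir93 had 60.7 and 86.2 and Mcm7 itself had 190 and 123. For 16 lower microRNA genes the gene that encloses them on the same strand was compared too. None of the 16 host genes was lower by 2 log2 units, their median log2 ratio was -0.01, and they ranged from -1.34 to 0.60.

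**Figure D2:**
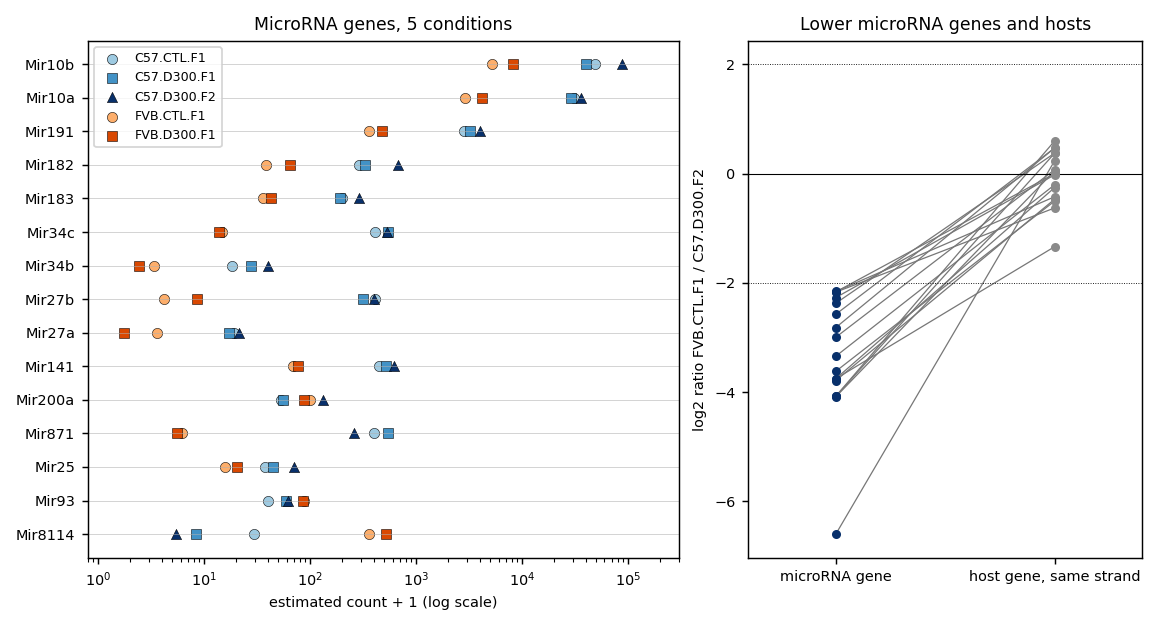
Left, estimated count plus 1 (log scale) of 15 microRNA genes in the 5 conditions, with blue symbols for C57BL/6J and orange symbols for FVB/N. Right, log2 ratio of FVB.CTL.F1 over C57.D300.F2 for the lower microRNA genes that lie in a compared gene (dark blue) joined to that host gene (grey), with dotted lines at 2 and -2. The microRNA genes lie below -2 and the hosts between -1.34 and 0.60.

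The difference among microRNAs followed their number in the nomenclature. This division was made after the values were seen. The 90 compared genes numbered up to 1000, which include let-7, had a median log2 ratio of -2.17, with 50 lower and 0 higher. They summed to 142693 counts in C57.D300.F2 and 12856 in FVB.CTL.F1. Mir10a and Mir10b together gave 123935 and 8132 of these counts. Their model SDs in C57.D300.F2 were 30924 and 99176, so the sums rest largely on 2 uncertain values. The 40 numbered above 1000 had a median of 0.28, with 3 lower and 3 higher, and summed to 45836 and 53857. In FVB.CTL.F1 the highest microRNA gene was Mir6240, with 18306 counts against 16262 in C57.D300.F2, and it was not called. The most abundant of the 3 lower genes was Mir5103, with 12804 counts in C57.D300.F2 and 2277 in FVB.CTL.F1. The 3 higher genes were Mir8114, Mir6238 and Mir3473f. Mir8114 (chr1:153899989-153900009, plus strand) had 4.46 counts in C57.D300.F2 and 360 in FVB.CTL.F1, but the model SD of the second value was 327. It had 519 in FVB.D300.F1, 7.37 for C57.D300.F1 and 28.4 counts for C57.CTL.F1.

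Messages of the late stages of sperm formation mostly had negative ratios, and a minority of them passed the limit. Lists for chromatin packaging, the tail, energy enzymes, ion channels and the acrosome together held 66 genes, of which 64 were compared. Of the 64, 62 had a negative ratio, 11 were lower and 0 higher, and the median log2 ratio was -1.49, a 2.81-fold difference. Over all genes compared, 8544 of 16969 had a negative ratio and 2.50% were lower. Their summed estimated count was 43427 in C57.D300.F2 and 15260 in FVB.CTL.F1. The sums of the other conditions were 15484 in FVB.D300.F1, 98938 for C57.D300.F1 and 116787 for C57.CTL.F1, so both FVB/N conditions were at about the same sum and below all C57BL/6J conditions. In these bulk samples, fewer germ cells and less of such RNA per cell cannot be told apart.

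All 7 genes for repackaging the sperm genome had negative ratios, from -2.07 to -1.27. Prm2, a protamine that replaces histones, had 6651 counts in C57.D300.F2 and 1584 in FVB.CTL.F1, beside 2019 in FVB.D300.F1, 12610 for C57.D300.F1 and 20903 for C57.CTL.F1. Prm1 had 707 and 185 counts in the contrast. The transition protein gene Tnp1, whose product precedes the protamines on DNA, had 551 and 227. Both conditions thus held the defining messages of spermatids and sperm, and Prm2 was the 1 member past the limit.

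Among 20 genes of the sperm tail, 19 had a negative ratio and 5 were lower, beside 2.50% lower over all genes. Smcp, of the capsule around the sperm mitochondria, had 10099 counts in C57.D300.F2 and 1799 in FVB.CTL.F1, a 5.61-fold difference. It had 1784 in FVB.D300.F1, 31101 for C57.D300.F1 and 35149 counts for C57.CTL.F1. Spata18 had 767 and 65.8 counts in the contrast, the lowest ratio of the list at -3.52. Akap4 and Akap3, the scaffold proteins of the fibrous sheath, had 1010 and 153 counts in C57.D300.F2 and 179 and 28.8 in FVB.CTL.F1. Odf1, of the outer dense fibres, had 7981 and 2589 counts, which was within the limit at -1.62. Tekt4 was the exception, with 85.9 counts in C57.D300.F2 and 100.1 in FVB.CTL.F1.

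Of 10 enzymes of energy supply in germ cells, 3 were lower. These were Aldoart2, Gapdhs and Pgk2, the sperm forms of enzymes of glycolysis, with Pgk2 at 1320 counts in C57.D300.F2 and 268 in FVB.CTL.F1. Slc2a3, a glucose transporter that other cells also use, went the other way at 1084 and 3835 counts, with 1858 in FVB.D300.F1, 632 for C57.D300.F1 and 999 for C57.CTL.F1. Both FVB/N conditions exceeded the C57BL/6J conditions for Slc2a3. Of 17 compared genes of the acrosome and egg binding, all 17 had a negative ratio, and Acr, the protease of the acrosome, and Spaca3 were lower. Acr had 39.7 counts in C57.D300.F2 and 6.31 in FVB.CTL.F1. Crisp2, the most abundant of this list, had 1894 and 525 counts. Of 11 compared ion channel genes all 11 had a negative ratio with a median of -1.20. Lrrc52, a subunit of a sperm potassium channel, was lower at 10.4 and 1.14 counts, the second under the floor of 3 counts. Calls in these lists are to be read against 2.50% lower and 0.707% higher genes over all compared.

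Genes of earlier germ cell stages were nearer to the centre. The 9 compared meiosis genes had a median of -0.64 with none called, and 5 were negative. Rec8, a meiotic cohesin, had 114 counts in C57.D300.F2 and 40.6 in FVB.CTL.F1, while Prdm9, which places recombination, had 73.7 and 122. The median turned to 0.69 when genes below 100 counts in both conditions were left out. Of 16 genes of the piRNA pathway, which guards germ cells against transposons, 11 were negative. Of the 16 genes 1 was lower, beside 2.50% over all genes. That gene was Ddx4, an RNA helicase of germ cells, with 93.7 counts in C57.D300.F2 and 19.1 in FVB.CTL.F1.

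Genes that mark other cells did not move as one. Liver, red cell and leukocyte lists, described below, had medians of -1.84, -1.16 and -1.07, so negative medians were not confined to germ cell lists. The 10 epithelial genes had a median of 0.47 with none called, and Epcam had 2241 counts in C57.D300.F2 and 3936 in FVB.CTL.F1. The 13 genes of smooth muscle and connective tissue had a median of -0.02 with none called. Of 83 compared ribosomal protein genes and 83 respiratory chain genes none was called, and the medians were 0.12 and 0.14. The shares over all genes were 0.707% higher and 2.50% lower, so the absence of calls in lists of 10 or 13 genes says little. The epithelial list summed to 13079 counts in C57.D300.F2 and 19251 in FVB.CTL.F1, and the part of a different mix of cells in the lower germ cell messages was not tested.

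**Figure D3:**
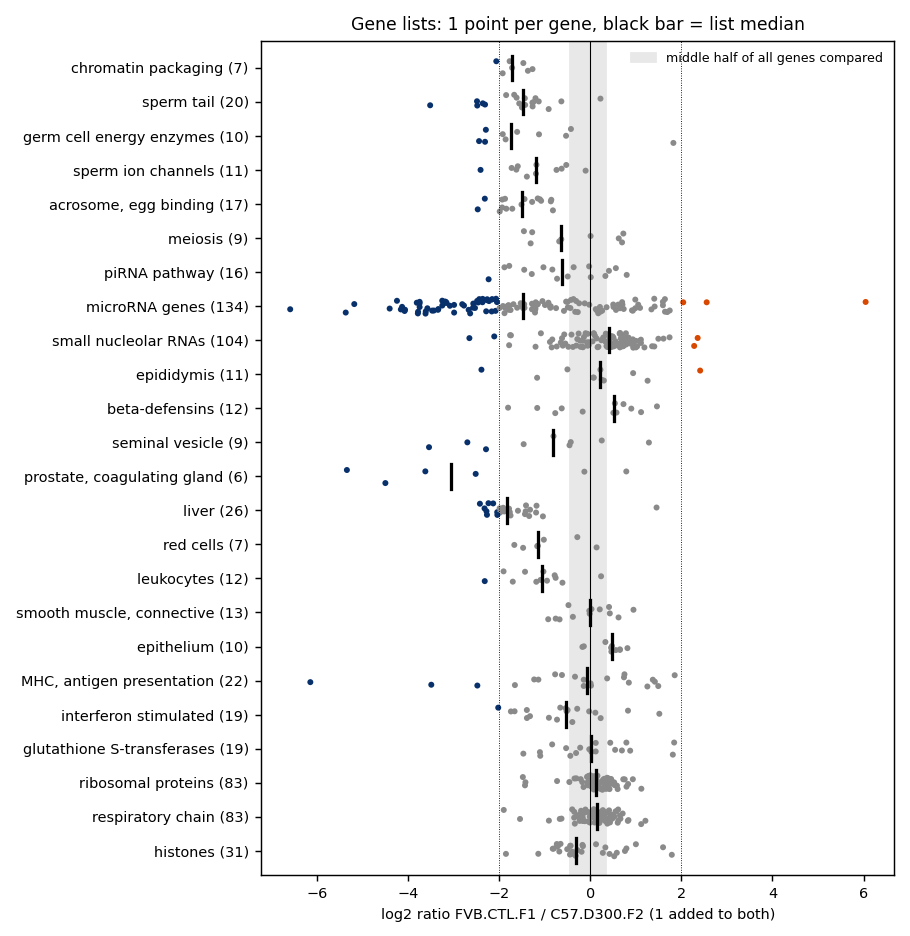
Log2 ratio of FVB.CTL.F1 over C57.D300.F2 (1 added to both counts) for the compared genes of 24 lists, with 1 point per gene, the number compared in brackets and the median as a black bar. The grey band spans the quartiles of all genes, -0.45 to 0.34, and dotted lines mark 2 and -2, beyond which points are dark blue or orange. The medians of the 5 upper lists and of the microRNA genes lie left of the band. Those of the meiosis, piRNA, seminal vesicle, prostate, liver, red cell, leukocyte and interferon lists lie left of it too. The epithelial, smooth muscle, ribosomal and respiratory chain lists have medians within or just right of it.

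The 15 highest genes with at least 100 counts and a difference above its model SD were led by an RNA gene. Rprl3, one of the genes related to the RNA of ribonuclease P, the enzyme that trims transfer RNA precursors, lies on chromosome 8 (3803125 to 3803359, GRCm38). It had 2.37 counts in C57.D300.F2 and 841 in FVB.CTL.F1 (model SD 206), which is at least 280-fold higher when the first value is set to 3 counts. It had 1210 in FVB.D300.F1, 9.63 for C57.D300.F1 and 3.75 counts for C57.CTL.F1. Its relative Rprl2 had 2.00 and 18.2 counts in the contrast, while the ribonuclease P RNA gene Rpph1 had 6703 and 4641, a log2 ratio of -0.53. The study placed Rprl3 among its DEHP-resistance RNAs, a list chosen on these samples. The genes of this family resemble each other, and reads shared between them may have been divided by the counting.

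Several of the highest genes are known from the kidney, neuroendocrine cells or epithelia. Aqp2, the water channel of the collecting duct, had 8.39 counts in C57.D300.F2 and 1181 in FVB.CTL.F1 (model SD 357), a 141-fold difference. The other conditions had 424 in FVB.D300.F1, 2.56 for C57.D300.F1 and 2.84 counts for C57.CTL.F1. Tmem27, collectrin, which carries amino acid transporters to the surface of kidney cells, had 1.49 and 183 counts in the contrast and 225 in FVB.D300.F1. Both FVB/N conditions lay above the C57BL/6J conditions for Aqp2 and Tmem27.

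Mapk13, a p38 kinase, had 151 counts in C57.D300.F2 and 1985 in FVB.CTL.F1 (model SD 550), a 13.1-fold difference. It had 1682 in FVB.D300.F1, 92.6 for C57.D300.F1 and 101 counts for C57.CTL.F1. Its relatives stayed within the limit, with Mapk14 at 590 and 729 counts, Mapk12 at 136 and 171 and Mapk11 at 56.8 and 41.5. These 3 relatives were looked up after the values of Mapk13 were seen. Mapk13 was the only 1 of the 4 p38 kinase genes called, and its call had led to the choice of the family.

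Chga, chromogranin A of neuroendocrine granules, had 57.2 counts in C57.D300.F2 and 823 in FVB.CTL.F1, and Sv2b, of synaptic vesicles, had 97.8 and 1064. Psca, a surface antigen of prostate and other epithelia, had 27.0 and 591, and Treh, the enzyme that splits trehalose, had 66.3 and 618. Tmem38b, an ion channel of the endoplasmic reticulum, had 59.0 and 725. Gdpd3, Alox12e and Tigit were also among these genes, with log2 ratios of 4.29, 4.04 and 3.04. Tigit, an inhibitory receptor of lymphocytes, had 17.0 and 146 counts.

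Wt1os, the antisense RNA that starts beside the transcription factor gene Wt1 on chromosome 2, had 25.1 counts in C57.D300.F2 and 574 in FVB.CTL.F1. Wt1 itself had 232 and 100.4 counts, a log2 ratio of -1.20. The other conditions had 9.09, 12.4 and 956 counts of Wt1os in C57.CTL.F1, C57.D300.F1 and FVB.D300.F1 and 140.5, 179 and 76.8 counts of Wt1. The antisense RNA was thus higher and Wt1 lower in both FVB/N conditions. The reads were aligned with a strand option, but whether the counting used strand is not given in the sources used here.

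**Figure D4:**
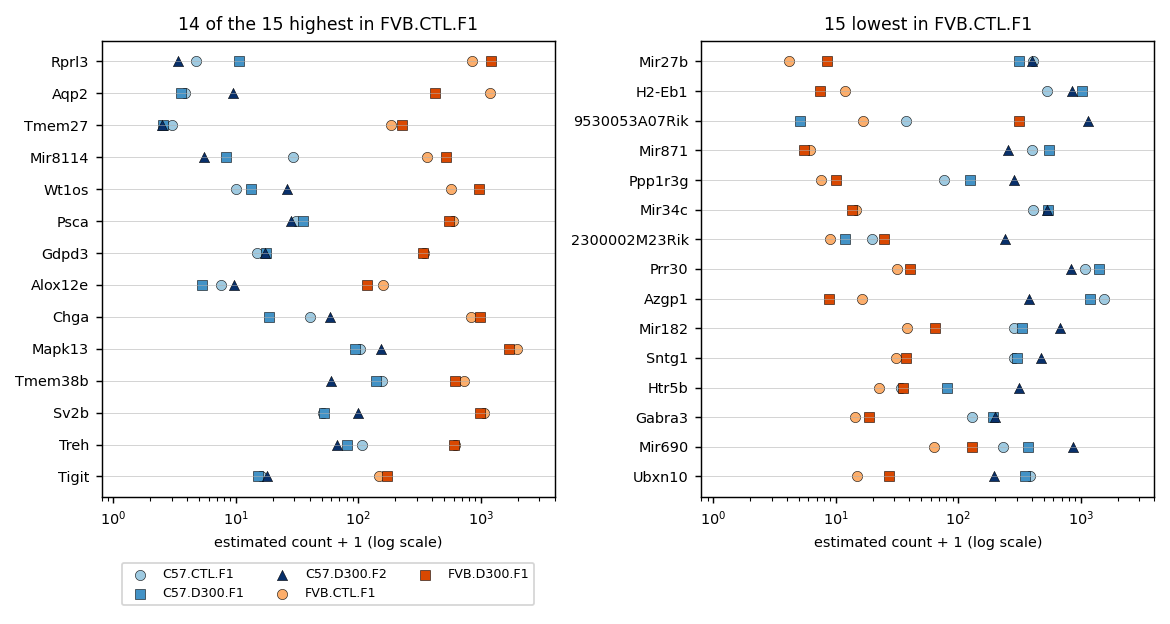
Estimated count plus 1 (log scale) in the 5 conditions for 14 of the 15 genes with the largest (left) and the 15 with the smallest (right) log2 ratio of FVB.CTL.F1 over C57.D300.F2. Blue symbols are C57BL/6J and orange symbols FVB/N. On the left both FVB/N conditions lie above all C57BL/6J conditions for all 14 genes drawn, and on the right they lie below for 12 genes, the others being 9530053A07Rik, 2300002M23Rik and Htr5b.

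Among the 15 lowest genes 5 were microRNA genes, Mir27b, Mir871, Mir34c, Mir182 and Mir690. The lowest messenger RNA was H2-Eb1, a beta chain of the class II proteins that present antigens to T cells. It had 854 counts in C57.D300.F2 (model SD 212) and 10.99 in FVB.CTL.F1 (model SD 5.10), a 77.7-fold difference, and 6.46 in FVB.D300.F1, 1020 for C57.D300.F1 and 533 for C57.CTL.F1. The other class II genes differed less, with H2-Aa at 940 and 609 counts, H2-Ab1 at 980 and 309.5 and the shared chain Cd74 at 2997 and 1355. Prr30 had 832 and 30.8 counts and Azgp1, a secreted zinc-binding glycoprotein, had 375 and 15.5. Ppp1r3g, a glycogen-targeting subunit of a phosphatase, had 287 and 6.65. The remaining genes included the neuronal receptors Htr5b and Gabra3, the adaptor Sntg1 and Ubxn10.

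A different pattern was seen for 9530053A07Rik, the third in order, which had 1148 counts in C57.D300.F2 with a model SD of 1105, and 15.7 in FVB.CTL.F1. It had 311 in FVB.D300.F1, 4.08 for C57.D300.F1 and 36.2 counts for C57.CTL.F1. The high conditions did not follow the strain. For 2300002M23Rik the count was 240 in C57.D300.F2 and between 7.91 and 23.8 in the other 4 conditions.

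The list of MHC and antigen presentation genes was centred near 0. Of 22 compared genes 11 had a negative ratio, 3 were lower and none higher, and the median was -0.07. The shares over all genes were 2.50% lower and 0.707% higher. H2-T22 and H2-T23, class I genes outside the classical set, had 74.1 and 214 counts in C57.D300.F2 and 5.65 and 37.4 in FVB.CTL.F1. By contrast the classical class I gene H2-D1 had 1661 and 3952 counts, H2-K1 had 1904 and 1718, and B2m, the chain that all class I proteins share, had 21428 and 27630. H2-T22 and H2-T23 lie in a run of 5 called genes on chromosome 17 (36029977 to 36168602), in which their neighbours Gm11127, H2-Bl and Gm8909 were higher. H2-Bl had 2.13 counts in C57.D300.F2 and 62.9 in FVB.CTL.F1, beside 86.0 in FVB.D300.F1. Class I genes are alike in sequence, so counts of single members are uncertain. All reads were mapped to mm10, the genome of C57BL/6J, and the part of mapping in these values was not tested.

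In all, 14 runs of at least 3 called genes with gaps of at most 200 kb were found, holding 50 called genes. These regions were chosen by the calls and are given as a description. In a run on chromosome 7 that holds Trim genes, Trim12a, Gm15133 and Trim30d were lower and Trim34b was higher. Trim34b had 5.36 counts in C57.D300.F2 and 87.3 in FVB.CTL.F1, while its relative Trim34a had 90.4 and 71.1. Trim12a had 131 and 9.77. On chromosome 1 (173857215 to 173982844), in the cluster of interferon-inducible Ifi200 genes, Mndal and Mnda were lower, at 62.6 and 23.9 counts in C57.D300.F2 and 4.41 and 3.40 in FVB.CTL.F1. Ifi202b was higher there, at 2.47 and 28.0. In each of these groups related genes with similar sequence differed in opposite directions.

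Genes of the liver and of accessory glands held calls in the lower direction, to be read against 2.50% lower genes and 8544 of 16969 negative ratios over all genes. Of 26 compared liver genes 25 had a negative ratio and 8 were lower, with a median of -1.84. Alb, serum albumin, had 2559 counts in C57.D300.F2 and 524 in FVB.CTL.F1, both far below its 100464 in C57.D300.F1 and 83529 for C57.CTL.F1. Of the 39 compared generational RNAs of the study, a list that the study chose on these samples and that shares genes with the liver list, 17 were lower. Of 6 compared prostate and coagulating gland genes 4 were lower, with Pbsn, probasin, at 62.7 and 0.559 counts and Tgm4, the transglutaminase of the copulatory plug, at 200 and 33.9. The 1 member with a positive ratio had 0.79, and the whole list summed to 2498 counts in C57.D300.F2 and 3208 in FVB.CTL.F1. Of 9 compared seminal vesicle genes Sva, Svs5 and Svs6 were lower, with Svs5 at 54.2 and 7.47 counts. In this list 2 genes had a positive ratio, up to 1.28, and the summed count was 1814 in C57.D300.F2 and 2536 in FVB.CTL.F1. The summed counts of both gland lists were thus higher in FVB.CTL.F1.

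Of 11 compared epididymis genes 1 was higher and 1 lower, and the median was 0.22. The shares over all genes were 0.707% higher and 2.50% lower. Rnase9, a secreted ribonuclease-like protein of the epididymis, had 149 counts in C57.D300.F2 and 797 in FVB.CTL.F1, beside 2065 in FVB.D300.F1. Cst8, a cystatin, had 24.6 and 3.87 counts. Of 12 compared beta-defensin genes of the list, antimicrobial proteins that coat sperm, none was called. Defb22, a beta-defensin outside that list and looked up after the values were seen, was higher at 77.1 and 457 counts. The abundant epididymal genes Adam7 and Ces5a were close to equal, with Adam7 at 30429 and 37310 counts and Ces5a at 23486 and 24703.

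Blood cell genes mostly had negative ratios, with 1 call. The single calls in the lists of this paragraph are to be read against 0.707% higher and 2.50% lower genes overall compared. Of 12 compared leukocyte genes 11 had a negative ratio and 1 was lower, Jchain, the joining chain of antibodies, at 76.8 and 14.6 counts. Of 7 red cell genes 6 had a negative ratio and none was called, with a median of -1.16. That median turned to 0.71 with FVB.D300.F1 in place of FVB.CTL.F1. Of 19 interferon-stimulated genes 15 were negative and Ifit3 was lower, at 54.7 and 12.7 counts. In the sex hormone list of 15 compared genes Hsd17b3, the testicular enzyme that makes testosterone, was higher at 2.48 and 17.2 counts, while the oestrogen receptor gene Esr1 had 767 and 498 and was not called.

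The 104 compared small nucleolar RNA genes, which guide the modification of ribosomal RNA, had a median of 0.41, with 2 higher and 2 lower. These are 1.92% each, beside 0.707% higher and 2.50% lower over all genes. Snora64 had 1007 counts in C57.D300.F2 and 5155 in FVB.CTL.F1, and Snora36b had 440 and 2138. Rnu12, the U12 RNA of the minor spliceosome, was chosen after its values were seen and had 10597 and 83775 counts, but its model SD in FVB.CTL.F1 was 206070, larger than the difference. Its partner Rnu11 had 11066 and 12854. Of 31 compared replication-dependent histone genes and 19 glutathione S-transferase genes none was called, and their medians were -0.33 and 0.02.

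The same strains could be set against each other in conditions that share no library with these. FVB.D300.F1 was compared with C57.D300.F1, both of the first generation after DEHP, with the second made of re-analysed libraries. Over the 16705 genes compared in both contrasts, 2.24% were higher and 6.61% lower by at least 2 log2 units there. Over all 17377 genes that could be compared there, the shares were 2.65% and 7.67%. Of the 120 higher genes 117 were compared there, and 92 of these, 78.6%, were higher again, making 24.5% of the 375 higher genes of that contrast. Of the 424 lower genes 404 were compared and 300, 74.3%, were lower again, making 27.2% of the 1104 lower genes. The sign agreed in 115 of 117 and 390 of 404 genes. None of the higher genes was lower there, and 4 lower genes, 9530053A07Rik, Agr2, Pbsn and Svs5, were higher.

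Among the groups described above, the microRNA genes had a median of -0.63 in FVB.D300.F1 against C57.D300.F1, and 31 of the 45 lower hairpin genes compared there were lower again. Of all 133 genes with a microRNA name compared there, 82 had a negative ratio, 38 were lower and 10 higher. The 66 genes of the 5 late germ cell lists had a median of -1.80, with 22 lower. These calls are to be read against 7.67% lower and 2.65% higher genes over all compared there. Other lists differed between the contrasts. The medians there against those in the newly made libraries were 6.91 against 0.22 for epididymis, 4.25 against 0.52 for beta-defensins, -7.46 against -1.84 for liver and -4.47 against -0.51 for liver transcription factors. The sign turned for prostate and coagulating gland (0.94 against -3.08), seminal vesicle (1.74 against -0.81) and red cells (1.64 against -1.16). Gpx5, the epididymal glutathione peroxidase, had 162 counts in C57.D300.F2 and 71.4 in FVB.CTL.F1, but 199 in C57.D300.F1 and 24121 in FVB.D300.F1. Gpx5 was thus high in FVB.D300.F1 alone, and Alb was high in both first generation C57BL/6J conditions.

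**Figure D5:**
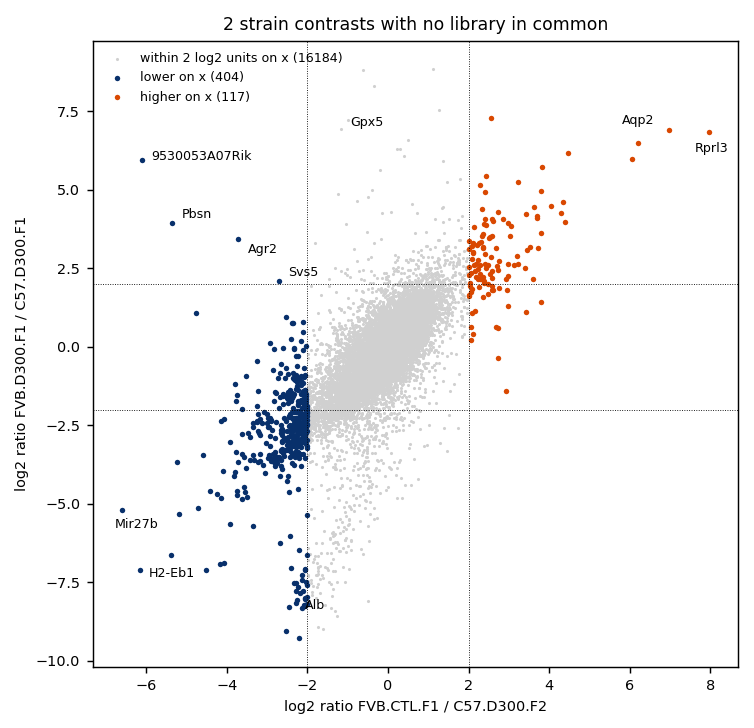
Log2 ratio of FVB.CTL.F1 over C57.D300.F2 (horizontal) and of FVB.D300.F1 over C57.D300.F1 (vertical) for the genes compared in both, with 1 point per gene and dotted lines at 2 and -2. Of 117 higher genes (orange) 92 lie above the upper line, and of 404 lower genes (dark blue) 300 lie below the lower line. Gpx5 is among genes high on the vertical axis alone, and 9530053A07Rik, Pbsn, Agr2 and Svs5 are at the upper left.

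Across all 5 conditions, both FVB/N values lay above all 3 C57BL/6J values for 115 of the 120 higher genes and below them for 393 of the 423 lower genes with 5 estimates. Over the 16956 genes with 5 estimates the same orders were found for 30.1% and 31.8%. The calls use 2 of the 5 conditions, which fixes part of this order.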

How the data were processed

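RNA of sperm from the cauda epididymis was treated to remove ribosomal RNA, fragmented and made into libraries with a small RNA kit. The authors clipped the adapter, dropped the shortest reads, aligned the rest to mm10 with TopHat (library type fr-secondstrand) and quantified genes with Cuffdiff. The submitters' processing notes name CASAVA 1.8.2, TopHat, Cufflinks and Cuffdiff. The annotation release, the versions of these programs and the options of Cuffdiff are not given in the sources used here. The deposited values were taken as a signal: 1 estimated count per gene and condition, scaled between libraries, combined over 5 libraries, not whole and not divided by gene length. The deposited variance of each count comes from the authors' model and its square root was used as the model SD. Of 24358 genes, 35 failed to be estimated for FVB.CTL.F1, against 36 for C57.D300.F2.

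The log2 ratio was computed with a pseudocount of 1 for genes estimated in both conditions with at least 10 counts in one, and a ratio of at least 2 was called. With 1 value per condition no test and no leaving out of a library was possible. The depth per library is unknown, and the totals per condition limit low genes most. A fold against a value of at most 3 counts was given as a lower bound against 3, or not given. The model SD covers what the authors' model holds, not a spread measured here.

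The 25 gene lists by symbol and 9 by name pattern, the contrast and the named genes were chosen with earlier results of these data known. Named were the 15 largest and 15 smallest ratios among called genes with at least 100 counts and a difference above its model SD, list members, the 3 extreme called members of pattern lists, the genes nearest the limit, and chromosome neighbours of a named gene. Of the genes 24243 matched a RefSeq table of GRCm38.p6, the assembly of mm10, and 23323 had an exon length from GENCODE on GRCm38. Sequences were taken from RefSeq. Computation used Python 3.11.15, numpy 2.4.6, pandas 2.3.3 and matplotlib 3.10.9, and the ratio was tested on simulated data. Alternatives were another pseudocount, count minimum, limit and scaling, a floor of 3 counts, the model SD as a second condition, and FVB.D300.F1 in place of FVB.CTL.F1. Some results are not reported here.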

Additional observations from a re-analysis of the deposited data

How the results depend on the processing

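No paired analysis was possible because each deposited value combines the 5 libraries of a condition, and for the same reason no library could be left out. Main counts of 120 higher and 424 lower genes became 57 and 162 with a pseudocount of 10, 56 and 186 with a minimum of 100 counts and 713 and 1964 at a limit of 1 log2 unit. With FVB.D300.F1 in place of FVB.CTL.F1, the counts were 271 higher and 346 lower. Scaling the conditions to equal totals shifted the median of all genes to -0.14, with 101 higher and 550 lower genes, and turned the medians of the ribosomal protein, glutathione S-transferase and Gm genes from just above to just below 0. The share of calls also found in the independent contrast was between 67.2% and 82.1% under the alternatives run.

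List medians moved as follows. With a pseudocount of 10 the acrosome list had -0.98, the prostate list -1.93 and the microRNA list -0.98. With a minimum of 100 counts meiosis had 0.69, the piRNA pathway 0.0063, seminal vesicle -0.11, prostate -2.52 and olfactory receptors 0.50. With no minimum prostate had -0.53 and microRNA genes 0.00, since genes at or near 0 in both conditions then entered, and with values under 3 set to 3 prostate had -2.57. With FVB.D300.F1 the medians were -1.13 for chromatin packaging, -1.15 for energy enzymes, 6.60 for epididymis, 4.12 for beta-defensins, -1.56 for prostate, -2.38 for liver, 0.71 for red cells, -0.57 for smooth muscle and connective tissue, 0.99 for strain alleles, 8.21 for DEHP-resistance RNAs and -2.14 for DEHP-susceptibility RNAs. With FVB.D300.F1 the ratio of 9530053A07Rik was -1.88 and no longer past the limit, and the cause of these shifts was not tested.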

Other observations

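Genes without an assigned function are given against the shares over all genes, 0.707% higher and 2.50% lower. Of 1095 compared genes named as Rik cDNA clones 64 were lower and 4 higher, and of 439 numbered predicted genes 21 were lower and 19 higher. The extreme higher genes of the second group were Gm4737, Gm17746 and Gm8615, of which Gm17746 had 7.13 counts in C57.D300.F2 and 99.4 in FVB.CTL.F1, beside 107 in FVB.D300.F1. Among 344 compared Zfp zinc finger genes 1 was higher, Zfp174, with 155 and 683 counts and 2055 in FVB.D300.F1, and Zfp874a and Zfp474 were lower.

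Leaving out chromosome Y with 6 compared genes and none lower, the share of lower genes by chromosome ranged from 1.49% on chromosome 16 to 4.16% on chromosome 6. Of 4 genes known to carry different alleles in C57BL/6J and FVB/N, Nnt, Hc and Tyr were compared and none was called. Hc, complement component C5, had 92.5 counts in C57.D300.F2 and 23.6 in FVB.CTL.F1, and Tyr, the pigment enzyme known for its albino allele in FVB/N, had 42.7 and 121. Of 11 liver transcription factor genes 6 were compared and none was called, and Foxa1 had 219 and 239 counts.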
